A study of Mus musculus with 16 samples.

Results

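The genes described here are 10 readouts of signalling through the Janus kinase Jak2 and its STAT transcription factors: the feedback inhibitors Cish, Socs1, Socs2 and Socs3, the kinases Pim1 and Pim2, the cytokine Osm, the D cyclins Ccnd1 and Ccnd2, and Myc. They were taken by symbol from a mouse bead-array table, in which 17 of 25697 probes carry 1 of these names. All 10 genes passed the detection filter and stand among the 9680 genes tested. The arrays measured RNA of haematopoietic stem cell-enriched cells in 4 groups of 4 arrays: wild-type (WT) cells, marked CD45.1, and Jak2VF knock-in cells, marked CD45.2, each after 4 weeks of interferon alpha or of vehicle. Interferon was given at 10000 units per day, and all groups carry the same strain label, C57B16. The CD45 allele runs with the genotype in every comparison between WT and Jak2VF, so that allele and the mutation cannot be told apart. The labels used here give no age and name no animal for any array, so p-values measure the spread from array to array, part of which may be technical.

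Jak2 is the kinase that sits on the receptors for erythropoietin and several other blood cytokines, and the Jak2VF mutation leaves it active without a ligand. Active Jak2 phosphorylates STAT proteins, chiefly STAT5 and STAT3, which enter the nucleus and switch on their targets. Among these targets are proteins of the SOCS family, which bind the receptor or the kinase and end the signal, as well as genes of cell survival and division such as the Pim kinases, the D cyclins and Myc. Interferon alpha signals through Jak1 and Tyk2 and can itself induce Socs1 and Socs3.

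STAT5 and STAT3 bind a palindrome whose core reads TTCNNNGAA, and promoters of the feedback genes are textbook places to find it. RefSeq promoter windows of 300 bases, from 250 before to 50 after the gene start in build GRCm38.p6, were matched for 5 of the 10 genes (Cish, Pim1, Pim2, Socs1 and Socs3), with 6 windows in all because Pim1 has 2. The motif, which reads the same on both strands, was found in the windows of Cish and Socs3. Across all 32851 windows of this length it was found in 2726, or 8.298%. The Socs3 window lies at chr11:117969317-117969616 on the minus strand and holds 1 match that begins 154 bases before the start. The Cish window lies at chr9:107296409-107296708 on the plus strand and holds 2 matches. They begin at positions 251 and 262 of its 300 bases, at the gene start and just after it. A match describes these letters only. Both sequences are shown because both windows hold the motif. After interferon in Jak2VF cells Socs3 was lower, while the Cish change of −0.31 did not pass the test. The changes of these genes were not tested against each other or against the motif. Capitals mark the motif.
Socs3 promoter: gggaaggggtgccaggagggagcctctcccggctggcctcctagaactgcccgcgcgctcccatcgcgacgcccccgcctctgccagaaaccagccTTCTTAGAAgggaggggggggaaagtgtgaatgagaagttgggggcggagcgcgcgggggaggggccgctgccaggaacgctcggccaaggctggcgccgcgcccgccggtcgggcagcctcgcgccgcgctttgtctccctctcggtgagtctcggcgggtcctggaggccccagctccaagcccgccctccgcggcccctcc
Cish promoter: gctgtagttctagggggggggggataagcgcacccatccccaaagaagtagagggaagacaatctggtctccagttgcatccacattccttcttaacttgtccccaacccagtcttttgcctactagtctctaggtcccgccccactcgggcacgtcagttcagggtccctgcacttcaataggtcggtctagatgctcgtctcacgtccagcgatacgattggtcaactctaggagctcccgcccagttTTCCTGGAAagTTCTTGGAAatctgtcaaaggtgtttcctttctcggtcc

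Array brightness differed between the groups and moved with several of these genes. The mean deposited intensity per array was 162 to 414 in WT with vehicle, 294 to 1009 in WT with interferon, 391 to 616 in Jak2VF with vehicle and 602 to 1130 in Jak2VF with interferon. The share of probes detected on an array ran from 31.9% to 50.8%, and the number of arrays limits the precision. Levels are log2 intensities after background correction and quantile scaling, so a gene that is lower has fallen relative to the other genes of the same array. Such a level compares 1 probe between arrays, not 1 gene with another. Arrays whose names share a number were taken to be on 1 slide, which the labels do not state. Each slide so defined held 2 arrays of every group. Of 14 stem cell markers, 12 were tested. Kit, Ly6a and Slamf1 were detected in every group, whereas Flt3 was detected on no array of either vehicle group, and Procr, Hlf and Flt3 on no array of Jak2VF with interferon. In bulk RNA, fewer cells of a type and less RNA per cell cannot be told apart.

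After interferon, Jak2VF cells had lower levels of Ccnd1, Socs3 and Pim1, and no member was higher at an adjusted p under 0.05, the threshold used throughout for a call. Those are 3 of 10 members called lower. Over all genes, 9.46% were called lower, 6.51% higher and 16% in either direction. The median change of the 10 members was −0.33 on the log2 scale, against −0.00 over all genes. In WT cells interferon gave 0 calls among the members, with 3 at an unadjusted p under 0.05, where 2.27% of all genes were called and the members' median change was 0.03. Between the genotypes on vehicle there were also 0 calls, with 2 members at an unadjusted p under 0.05, where 0.424% of all genes were called. Between the genotypes on interferon, Osm was higher and Ccnd1 lower in Jak2VF, 2 of 10 members where 17.7% of all genes were called, 7.62% higher and 10.1% lower. The shares for interferon in WT and for the genotypes on vehicle were unstable: the 220 genes behind the first ran from 42 (without replicate 1 of WT with interferon) to 1999 (without replicate 2 of it) on leaving out 1 array, with 1134 and 1609 without replicates 2 and 4 of WT with vehicle, and the 41 behind the second from 16 (without replicate 4 of Jak2VF with vehicle) to 404 (without replicate 4 of WT with vehicle). The members' counts are read against these shares, and nothing particular to the list is drawn from them. With interferon, the groups of 4 arrays did not overlap for 1 of 10 members in WT, where this held for 10.7% of all genes, and for 3 of 10 in Jak2VF cells, where it held for 29.9%. On vehicle the genotypes overlapped for all 10 members (9.8% of all genes did not), and on interferon they did not for 3 (27.9% of all genes). The interferon and genotype comparisons share groups, so their changes are given side by side and not as repeats of each other.

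**Figure D1:**
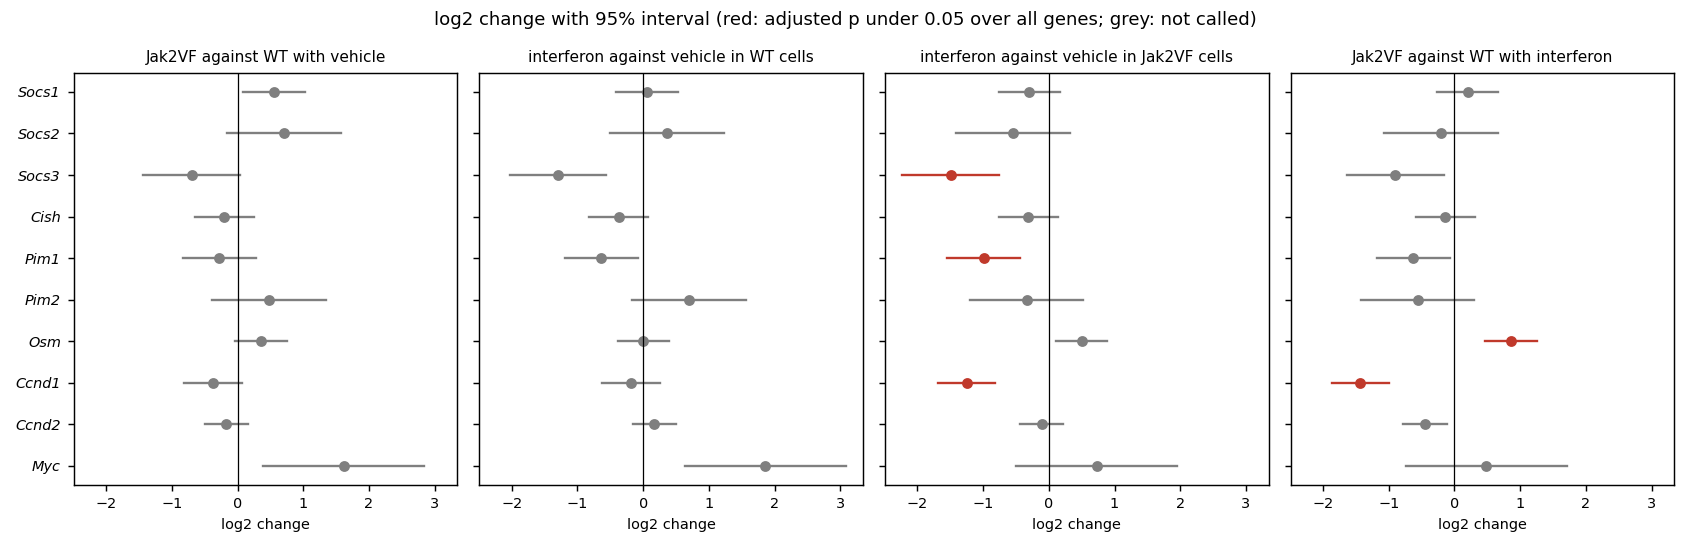
Log2 change (point) with its 95% interval (line, horizontal axis in log2 units) of the 10 genes in 4 comparisons, in red where the adjusted p over all genes was under 0.05. Ccnd1, Socs3 and Pim1 lie below 0 for interferon in Jak2VF cells, and Ccnd1 and Osm lie on opposite sides of 0 between the genotypes on interferon.

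Ccnd1, which with Cdk4 and Cdk6 drives cells from G1 towards DNA synthesis, had the smallest adjusted p of the 10 genes in each comparison that called it. Its log2 levels were 10.08, 10.03, 10.32 and 10.28 in WT with vehicle, and 10.42, 9.46, 9.77 and 10.31 in WT with interferon. They were 9.61, 9.81, 10.09 and 9.73 in Jak2VF with vehicle, and 8.86, 8.40, 8.75 and 8.22 in Jak2VF with interferon. All 4 arrays of Jak2VF with interferon lay below the other 12, and the other 3 groups overlapped each other. This separation was seen only after scaling. The unscaled intensity spanned 609 to 972 in Jak2VF with vehicle, 490 to 1120 in Jak2VF with interferon and 302 to 2828 in WT with interferon, which overlapped. In Jak2VF cells interferon lowered Ccnd1 by 2.38-fold (log2 change −1.25, SE 0.21, 95% interval −1.69 to −0.81, adjusted p = 0.00129). On interferon it was 2.70-fold lower in Jak2VF than in WT (log2 −1.43, SE 0.21, adjusted p = 0.000388). In WT cells the interferon change was −0.19 (95% interval −0.63 to 0.25, adjusted p = 0.528). The difference between the interferon changes of the genotypes was −1.06 (SE 0.29, 95% interval −1.68 to −0.44), which did not pass over all genes (adjusted p = 0.132), so a genotype-dependent response was not shown. Across all genes 0.114% passed that test of the difference.

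A pair of further Ccnd1 probes passed the filter and gave the same direction. The probe ILMN_2601471 changed by −1.38 with interferon in Jak2VF cells (SE 0.19, adjusted p = 0.000562) and ILMN_2669793 by −1.46 (SE 0.26, adjusted p = 0.00266). Jak2VF and WT on interferon differed by −1.44 (adjusted p = 0.000285) and −1.44 (adjusted p = 0.00219). Probes of 1 gene share their RNA and are not replicates. Within slides, the interferon change of Ccnd1 in Jak2VF cells was −1.08 on slide 1 and −1.42 on slide 2, and the genotype difference on interferon was −1.31 and −1.55. None of these passed on 1 slide alone (adjusted p = 0.259, 0.0813, 0.117 and 0.114). With each array centred on the median of all probes, a scaling added after the data were seen, both calls were lost as well, at −0.52 (adjusted p = 0.491) and −0.95 (adjusted p = 0.412). With array brightness as a covariate these changes were −1.39 (adjusted p = 0.00311) and −1.51 (adjusted p = 0.000354).

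**Figure D2:**
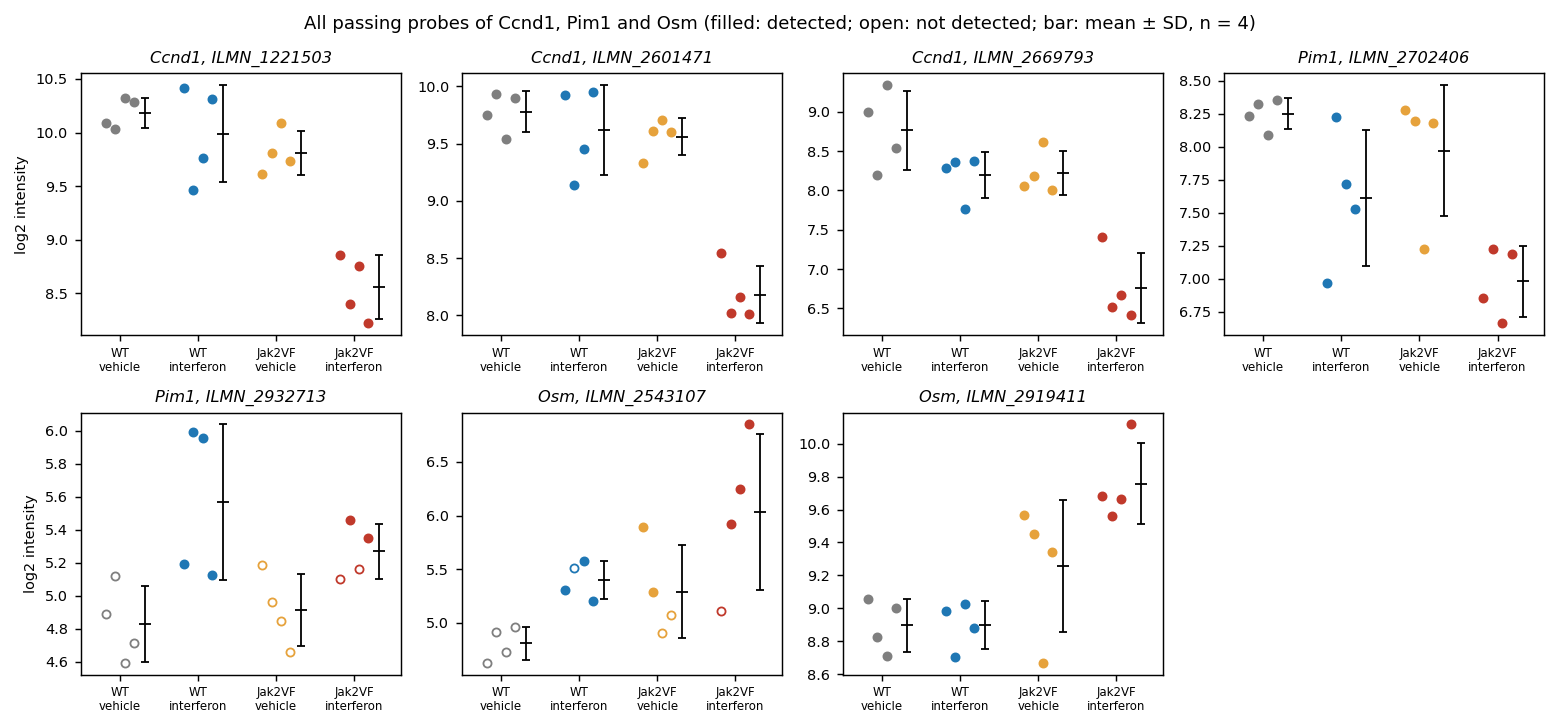
Log2 intensity (vertical axis) of the passing probes of Ccnd1, Pim1 and Osm on each array of the 4 groups, filled where detected and open where not, with the mean ± SD (n = 4) as a bar. All 3 Ccnd1 probes are lowest in Jak2VF with interferon, while the dimmer Pim1 probe was detected on no vehicle array.

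Ccnd2, another D cyclin, passed no comparison. Its levels were 11.83, 12.22, 11.98 and 12.45 in WT with vehicle, 12.25, 12.34, 12.18 and 12.39 in WT with interferon, 11.88, 11.89, 12.03 and 12.001 in Jak2VF with vehicle, and 12.11, 12.06, 11.69 and 11.51 in Jak2VF with interferon. The 2 interferon groups did not overlap, with every Jak2VF array below every WT array. That difference was −0.45 (SE 0.15, 95% interval −0.78 to −0.12), and it missed the threshold (adjusted p = 0.0581). It passed without background correction (adjusted p = 0.0283), with an intensity trend and robust prior (0.0292), on the deposited processed values (0.0366) and without the 3 dimmest arrays (0.0468), and also without replicate 1 (0.0468), 3 (0.0460) or 4 (0.0438) of WT with vehicle or replicate 1 (0.0385) or 2 (0.0480) of Jak2VF with interferon. The interferon changes were 0.17 in WT (95% interval −0.16 to 0.50, adjusted p = 0.445) and −0.11 in Jak2VF cells (adjusted p = 0.692).

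Socs3, which inhibits Jak kinases at receptors of the gp130 family, was lower after interferon in Jak2VF cells. Its levels were 8.01, 7.67, 8.18 and 8.001 in WT with vehicle, 6.12, 7.41, 6.80 and 6.36 in WT with interferon, 7.89, 7.28, 6.81 and 7.09 in Jak2VF with vehicle, and 5.22, 6.60, 6.15 and 5.11 in Jak2VF with interferon. The order of the means was WT with vehicle, Jak2VF with vehicle, WT with interferon and Jak2VF with interferon, and in both genotypes the interferon and vehicle arrays did not overlap. Only 2 of the 4 arrays of Jak2VF with interferon detected the gene. In Jak2VF cells the change was −1.49 (2.82-fold lower, SE 0.34, 95% interval −2.23 to −0.76, adjusted p = 0.00970). In WT cells it was −1.29 (SE 0.34, 95% interval −2.03 to −0.56) and missed the threshold (adjusted p = 0.0567), with a call on leaving out replicate 2 (0.0372) or 4 (0.0408) of WT with vehicle or replicate 2 of WT with interferon (0.0163). The difference between the genotypes' responses was −0.20 (adjusted p = 0.871).

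Before scaling, Socs3 intensity spanned 112 to 226 in WT with vehicle and 143 to 236 in WT with interferon. It spanned 141 to 284 in Jak2VF with vehicle and 119 to 246 in Jak2VF with interferon. These raw ranges overlapped. The mean intensity per array was 391 to 616 in Jak2VF with vehicle and 602 to 1130 in Jak2VF with interferon. The Socs3 change in Jak2VF cells was −1.67 on slide 1 and −1.32 on slide 2. It was −1.28 with brightness as a covariate, where the call was lost (adjusted p = 0.0512). With centring on the median of all probes it was −1.01 (adjusted p = 0.201).

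Cish, a SOCS protein induced by STAT5 that blocks STAT5 docking, ranged from 8.61 to 9.70 over the 16 arrays. Levels were 9.70, 9.08, 9.38 and 9.43 in WT with vehicle and 8.61, 9.54, 8.76 and 9.19 in WT with interferon. They were 9.58, 8.92, 9.32 and 8.97 in Jak2VF with vehicle and 9.15, 8.81, 8.69 and 8.89 in Jak2VF with interferon, so that all groups overlapped. The interferon change was −0.37 in WT (95% interval −0.82 to 0.08, adjusted p = 0.229) and −0.31 in Jak2VF cells (95% interval −0.76 to 0.14, adjusted p = 0.357). On vehicle the Jak2VF cells differed from WT by −0.20 (95% interval −0.65 to 0.25, adjusted p = 0.583). That interval holds under this scaling only and cannot exclude a rise. Centring on the median of all probes moved the median of all genes by 0.89 in the same comparison.

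Socs2, a regulator of growth hormone signalling and another STAT5 target, passed no comparison. Levels were 8.76, 7.54, 9.37 and 8.43 in WT with vehicle, 8.44, 9.52, 8.43 and 9.19 in WT with interferon, 9.66, 8.36, 9.97 and 8.94 in Jak2VF with vehicle, and 8.78, 9.04, 8.79 and 8.14 in Jak2VF with interferon. All 4 groups overlapped. On vehicle the Jak2VF mean was 0.71 above WT, with a 95% interval from −0.16 to 1.57 (adjusted p = 0.319). The interferon changes were 0.37 in WT (adjusted p = 0.539) and −0.54 in Jak2VF cells (adjusted p = 0.410).

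Socs1, the SOCS protein that restrains interferon signalling, was near the limit of detection, with 1, 1, 2 and 2 of 4 arrays detecting it in WT with vehicle, WT with interferon, Jak2VF with vehicle and Jak2VF with interferon. Its levels were 4.79, 4.64, 4.51 and 5.53 in WT with vehicle and 5.31, 5.16, 5.33 and 5.87 in Jak2VF with vehicle. With interferon they were 5.24, 4.84, 4.82 and 4.79 in WT and 4.85, 5.35, 5.31 and 4.98 in Jak2VF cells. The groups overlapped throughout. The vehicle difference between the genotypes was 0.56 (SE 0.22, 95% interval 0.09 to 1.02, adjusted p = 0.190), and without replicate 4 of WT with vehicle it passed (adjusted p = 0.0437). Under other changes of the processing this difference ran from −0.60 to 0.59 and never passed, so its sign was not stable. The interferon change was 0.06 in WT (95% interval −0.41 to 0.53, adjusted p = 0.867) and −0.30 in Jak2VF cells (adjusted p = 0.403).

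**Figure D3:**
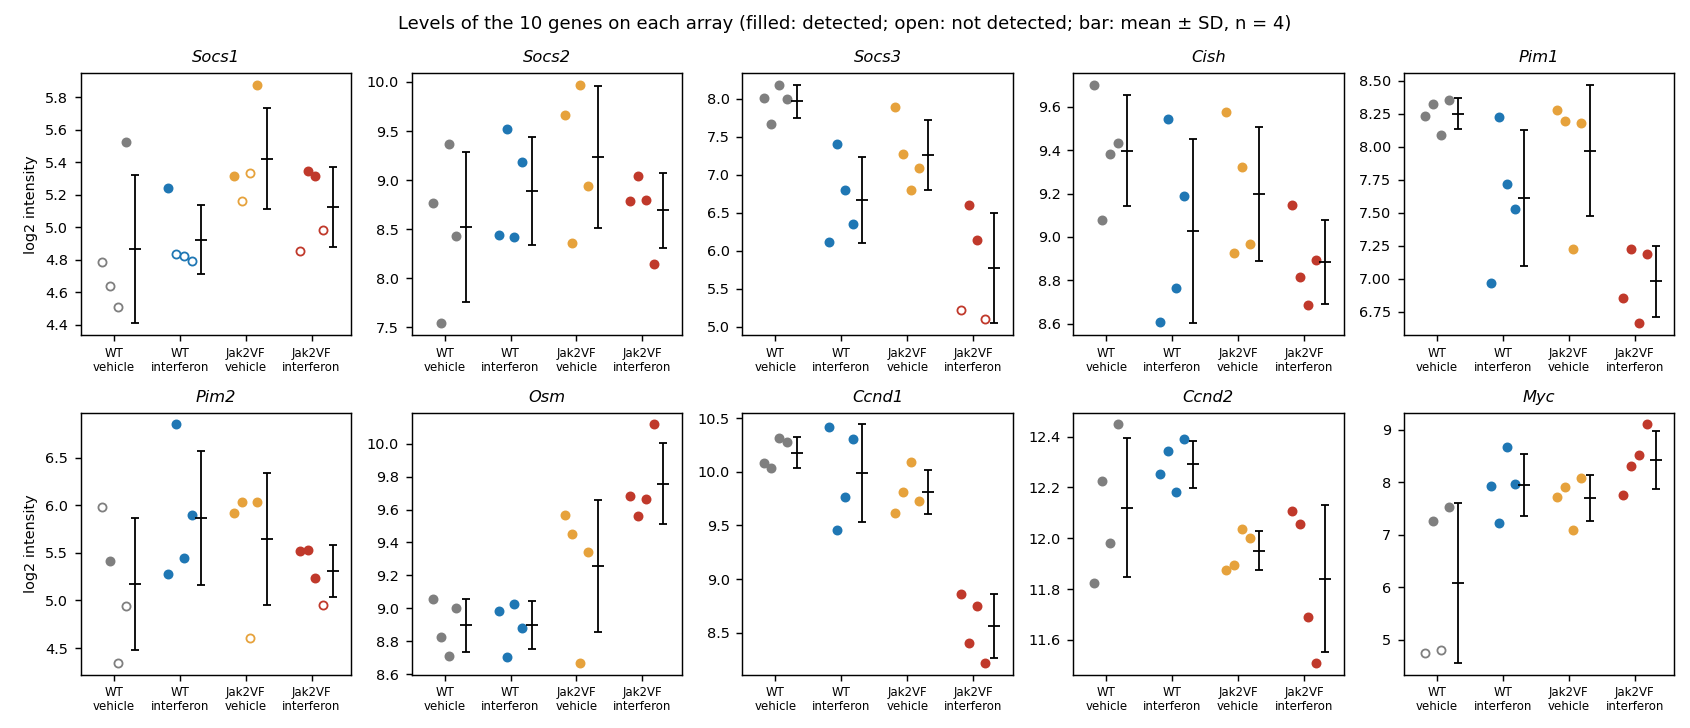
Log2 intensity (vertical axis) of the 10 genes on each array of the 4 groups, filled where detected and open where not, with the mean ± SD (n = 4) as a bar. Ccnd1 separates the 4 arrays of Jak2VF with interferon from all others, Socs3 separates interferon from vehicle in both genotypes, and Socs1 and Pim2 have many undetected arrays.

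Pim1, a serine/threonine kinase that promotes survival and is induced by STAT5 and STAT3, was lower after interferon in Jak2VF cells. Levels were 8.23, 8.32, 8.09 and 8.35 in WT with vehicle, 6.97, 8.23, 7.72 and 7.53 in WT with interferon, 8.28, 8.19, 7.23 and 8.18 in Jak2VF with vehicle, and 6.85, 7.23, 6.66 and 7.19 in Jak2VF with interferon. Unscaled intensities overlapped in Jak2VF cells, at 158 to 379 with vehicle and 180 to 329 with interferon. Once scaled, these groups only just failed to overlap, the nearest vehicle and interferon arrays both rounding to 7.23. The change that follows is that of the scaled levels in Jak2VF cells. The change was −0.99 (1.98-fold lower, SE 0.26, 95% interval −1.54 to −0.43, adjusted p = 0.0191), and −1.19 and −0.78 on the 2 slides. The call was lost without replicate 1 (adjusted p = 0.0618), 2 (0.0519) or 4 (0.0510) of Jak2VF with vehicle, without replicate 3 of Jak2VF with interferon (0.0593), and with brightness as a covariate (log2 −0.85, adjusted p = 0.0825). In WT cells the change was −0.64 (95% interval −1.19 to −0.08, adjusted p = 0.117), and it passed without replicate 2 of WT with interferon (adjusted p = 0.0336).

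The other passing Pim1 probe, ILMN_2932713, lay near background. It was detected on all 4 arrays of WT with interferon and on 2 of Jak2VF with interferon, and on no vehicle array. Its change with interferon was 0.74 in WT (SE 0.21, adjusted p = 0.0584) and 0.35 in Jak2VF cells (95% interval −0.09 to 0.80, adjusted p = 0.288). Neither passed, although the interferon and vehicle arrays of WT did not overlap for this probe. Both estimates were opposite in sign to those of ILMN_2702406, so the probes of Pim1 disagree. With no vehicle array detecting the dimmer probe, the size of its differences is uncertain. The Pim1 call rests on 1 probe, ILMN_2702406.

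Pim2, a relative of Pim1 with an overlapping role, was detected on 1, 4, 3 and 3 arrays of WT with vehicle, WT with interferon, Jak2VF with vehicle and Jak2VF with interferon. Its levels were 5.99, 5.41, 4.35 and 4.94 in WT with vehicle, 5.28, 6.85, 5.44 and 5.90 in WT with interferon, 5.92, 6.03, 4.61 and 6.03 in Jak2VF with vehicle, and 5.52, 5.53, 5.24 and 4.95 in Jak2VF with interferon. All groups overlapped, and no comparison passed. The interferon changes were 0.70 in WT (SE 0.40, adjusted p = 0.237) and −0.34 in Jak2VF cells (adjusted p = 0.632). The remaining Pim2 probes were detected on 1 and 3 of 16 arrays and were not tested.

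Osm encodes oncostatin M, a cytokine of the interleukin-6 family that is induced by STAT5 and signals through gp130. Levels were 9.06, 8.82, 8.71 and 9.001 in WT with vehicle, 8.98, 8.70, 9.03 and 8.88 in WT with interferon, 9.57, 9.45, 8.67 and 9.34 in Jak2VF with vehicle, and 9.68, 9.56, 9.67 and 10.12 in Jak2VF with interferon. The WT groups covered nearly the same range, and every array of Jak2VF with interferon lay above every WT array. On interferon, Osm was 1.81-fold higher in Jak2VF than in WT (log2 0.86, SE 0.18, 95% interval 0.47 to 1.25, adjusted p = 0.00516). The within-slide differences were 0.78 and 0.94. Intensities before scaling overlapped on interferon, at 217 to 1143 in WT and 827 to 2096 in Jak2VF. The interferon change was 0.50 in Jak2VF cells (95% interval 0.11 to 0.89) and missed the threshold (adjusted p = 0.0796), while in WT the 95% interval ran from −0.39 to 0.39 (adjusted p = 0.996). The difference of these changes was 0.50 (adjusted p = 0.406). The dimmer Osm probe, ILMN_2543107, was 0.63 higher between the genotypes on interferon and did not pass (adjusted p = 0.183). With interferon this probe changed by 0.59 in WT (adjusted p = 0.172) and 0.74 in Jak2VF cells (adjusted p = 0.113). Neither passed, but its WT groups did not overlap, so the Osm probes differ on the WT response. It was detected on 3 arrays of WT with interferon and 0 of WT with vehicle, so the size of that change is uncertain.

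Myc, a transcription factor that drives growth and ribosome production, moved with array brightness. Its levels were 4.74, 7.27, 4.79 and 7.53 in WT with vehicle, 7.92, 7.23, 8.67 and 7.96 in WT with interferon, 7.71, 7.92, 7.08 and 8.09 in Jak2VF with vehicle, and 7.77, 8.32, 8.53 and 9.10 in Jak2VF with interferon. The probe was not detected on replicates 1 and 3 of WT with vehicle, the 2 dimmest arrays of the series with mean intensities of 246 and 162. Interferon changed Myc by 1.86 in WT (SE 0.57, 95% interval 0.64 to 3.08, adjusted p = 0.0702), a change that passed on leaving out replicate 2 (0.0317) or 4 (0.0206) of WT with vehicle or replicate 2 of WT with interferon (0.0330). Without the 3 dimmest arrays it was 0.78 (adjusted p = 0.202). In Jak2VF cells the interferon change was 0.73 (adjusted p = 0.437). On vehicle Jak2VF exceeded WT by 1.61 (SE 0.57, adjusted p = 0.163), which became 0.30 (adjusted p = 0.794) without the 3 dimmest arrays and passed without replicate 4 of WT with vehicle (adjusted p = 0.0481). Across the 16 arrays the Myc level and the log2 mean intensity had a Pearson correlation of 0.855, and 0.689 within groups, given as a description. The other Myc probe was detected on no array.

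**Figure D4:**
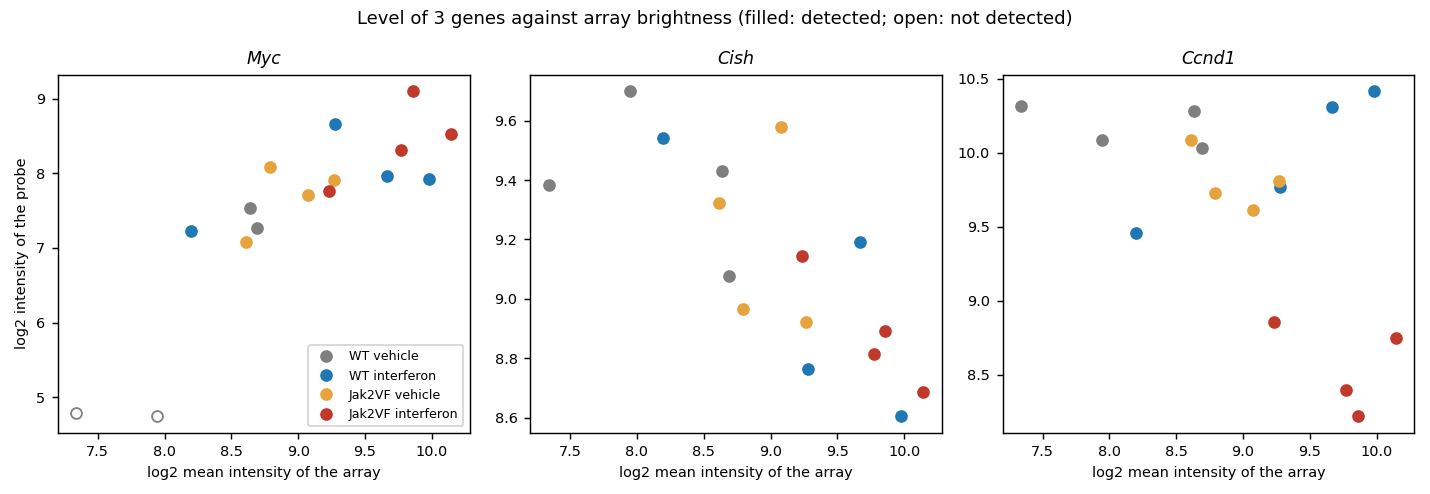
Log2 intensity of Myc, Cish and Ccnd1 (vertical axis) against the log2 mean intensity of the array (horizontal axis), each point 1 array coloured by group and open where the gene was not detected. Myc is higher on brighter arrays (r = 0.855 over 16 arrays) and Cish lower (r = −0.762), and the 4 Ccnd1 points of Jak2VF with interferon lie below all others.

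Brightness also ran with other members over the 16 arrays. The correlation was −0.762 for Cish, −0.745 for Socs3, −0.685 for Pim1, 0.605 for Osm and −0.492 for Ccnd1. Within groups it was −0.610 for Cish, −0.280 for Socs3, −0.241 for Pim1, 0.412 for Osm and 0.325 for Ccnd1, so for Ccnd1 the sign within groups was opposite to that across them.

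The widest contrast set Jak2VF with interferon against WT with vehicle, the treated mutant against the untreated normal cells. Osm (log2 0.86, adjusted p = 0.00208) and Myc (2.34, SE 0.57, adjusted p = 0.00489) were higher. Ccnd1 (−1.62, SE 0.21, adjusted p = 4.91e-05), Socs3 (−2.19, SE 0.34, adjusted p = 0.000228) and Pim1 (−1.27, SE 0.26, adjusted p = 0.00158) were lower. These 5 of 10 members stand beside 45.3% of all genes called, 23.7% higher and 21.5% lower. The same 5 had groups that did not overlap, which held for 38% of all genes. Cish, at −0.51, missed the threshold (adjusted p = 0.0607). The dimmer Osm probe was at least 1.09-fold higher, detected on 3 arrays of Jak2VF with interferon and on no array of WT with vehicle (adjusted p = 0.00456). These groups also differed most in brightness. Mean intensities were 162 to 414 in WT with vehicle and 602 to 1130 in Jak2VF with interferon, without overlap. Brightness and group therefore cannot be told apart in this contrast, also with brightness as a covariate. In that fit Ccnd1 (−1.90, adjusted p = 0.00234) and Socs3 (−1.77, adjusted p = 0.0380) passed. Osm (0.55, adjusted p = 0.187), Pim1 (−0.999, adjusted p = 0.113) and Myc (0.58, adjusted p = 0.628) did not. With arrays centred on the median of all probes, Pim1 and Ccnd1 turned sign here (0.36 and 0.30), under a scaling that raised the median of all genes by 1.43.

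Other genes of the pathway were read from lists, whose counts stand beside the shares over all genes. With interferon in Jak2VF cells, 9.46% of all genes were called lower and 6.51% higher. Between the genotypes on interferon, 10.1% were lower and 7.62% higher in Jak2VF. Nothing particular to these lists is drawn from their counts. Of 11 Janus kinases and STAT factors, 10 were tested, and 2 were called lower and 0 higher with interferon in Jak2VF cells, namely Stat3 (−1.02, SE 0.14, adjusted p = 0.000488) and Stat4 (−0.89, SE 0.16, adjusted p = 0.00227). The same 2 were lower in Jak2VF than in WT on interferon, Stat4 by −1.11 (adjusted p = 0.000403) and Stat3 by −0.94 (adjusted p = 0.000449). Jak2 itself, the kinase that carries the mutation, changed by 0.70 with interferon in WT (adjusted p = 0.0708) and by 0.53 in Jak2VF cells (adjusted p = 0.117). On vehicle its level differed between the genotypes by −0.02 (SE 0.22, adjusted p = 0.968). No gene of this list was called in WT cells with interferon or between the genotypes on vehicle.

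Of 19 other textbook STAT5 or STAT3 targets, 14 were tested, and 3 were lower and 0 higher with interferon in Jak2VF cells. These were Irf1, a transcription factor that interferon is known to induce (−1.41, SE 0.24, adjusted p = 0.00150), the AP-1 subunit Fos (−1.39, SE 0.36, adjusted p = 0.0183) and the ERK phosphatase Dusp6 (−0.54, SE 0.17, adjusted p = 0.0428). The list's median change was −0.52, against −0.00 over all genes. In Jak2VF against WT on interferon Dusp6 (−0.89, adjusted p = 0.00240), Irf1 (−0.89, adjusted p = 0.0176) and the stress gene Gadd45g (−0.78, adjusted p = 0.0359) were lower, again 3 of 14 with 0 higher. In WT cells interferon gave 0 calls, the smallest p being that of Cebpb, a myeloid transcription factor (−1.03, SE 0.28, adjusted p = 0.0569).

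Of 15 other feedback regulators, 11 were tested. Usp18, the protease that interferon induces and that shuts down its receptor, rose with interferon in WT cells by 1.21 (SE 0.11, adjusted p = 6.93e-05) and in Jak2VF cells by 0.40 (SE 0.11, adjusted p = 0.0213). On interferon it was lower in Jak2VF than in WT (log2 −0.93, adjusted p = 0.000126), and the difference of its responses, −0.81, missed the threshold (adjusted p = 0.0579). Pias3, an inhibitor of STAT3, fell by 0.47 in Jak2VF cells with interferon (adjusted p = 0.0449). Ptpn6, the phosphatase SHP-1, was lower between the genotypes on interferon (−0.38, adjusted p = 0.0388). All 4 other SOCS genes were tested and none was called with interferon or between the genotypes, Socs5 having the smallest p on interferon (−0.67, SE 0.23, adjusted p = 0.0535). Socs5 was lower in Jak2VF with interferon than in WT with vehicle (−0.99, SE 0.23, adjusted p = 0.00320).

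The partners of the Pim kinases, D cyclins and Myc numbered 24 and gave 0 calls among the 19 tested with interferon in either genotype. The smallest p in Jak2VF cells was that of Cdkn2d, an inhibitor of Cdk4 and Cdk6 (−0.64, SE 0.21, adjusted p = 0.0517). On interferon Cdkn2d (−1.03, SE 0.21, adjusted p = 0.00384) and Ccnd3, the third D cyclin (−0.57, SE 0.17, adjusted p = 0.0312), were lower in Jak2VF than in WT, 2 of 19 with 0 higher. That is near the share over all genes, of which 10.1% were called lower there. Of 10 relatives and receptors of oncostatin M, 6 were tested and 1 was called with interferon in Jak2VF cells. This was Ctf1, which encodes the gp130 cytokine cardiotrophin-1 (−0.56, SE 0.13, adjusted p = 0.00965), and it was also lower between the genotypes on interferon (−0.68, adjusted p = 0.00228).

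Of 10 cytokine receptors, 8 were tested, and 3 were lower and 1 higher with interferon in Jak2VF cells. Csf2rb, the shared subunit of the interleukin-3, interleukin-5 and GM-CSF receptors, changed by −1.11 (SE 0.23, adjusted p = 0.00495), Il3ra, the interleukin-3 receptor alpha chain, by −0.88 (adjusted p = 0.0193), and Epor, the erythropoietin receptor, by 1.20 (SE 0.23, adjusted p = 0.00278). On interferon 1 receptor was higher and 1 lower in Jak2VF than in WT, the higher one being Epor (0.99, adjusted p = 0.00753). The test of the difference between the genotypes' interferon changes called 1 of the 8 lower and 0 higher. Between the genotypes on vehicle no gene of any of these pathway lists was called, the smallest adjusted p being that of Mxi1, which competes with Myc for Max (−0.62, SE 0.18, adjusted p = 0.136). Epor is also an erythroid marker in the lists that follow.

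Markers of several cell types moved in the same comparisons. Over all genes, 9.46% were called lower and 6.51% higher with interferon in Jak2VF cells. Between the genotypes on interferon these shares were 10.1% and 7.62%. In either direction, 2.27% were called with interferon in WT and 0.424% between the genotypes on vehicle. With interferon in Jak2VF cells, 9 of 14 erythroid markers were higher and 0 lower, 7 of 10 megakaryocyte markers and 5 of 12 stem cell markers were lower with 0 higher, and 5 of 14 granulocyte and monocyte, 6 of 10 mast cell, basophil and eosinophil, 6 of 6 antigen-presenting cell, 2 of 5 B and plasma cell and 2 of 4 T and NK cell markers were lower with 0 higher. In WT cells with interferon, 3 of 14 erythroid markers were higher, and 3 of 14 granulocyte and monocyte, 4 of 10 mast cell, basophil and eosinophil and 2 of 5 B and plasma cell markers were lower, with 0 calls in the other lists. On interferon, 7 of 14 erythroid markers were higher in Jak2VF than in WT, and 8 of 10 megakaryocyte, 6 of 12 stem cell, 5 of 6 antigen-presenting cell, 3 of 14 granulocyte and monocyte, 2 of 10 mast cell, basophil and eosinophil, 1 of 5 B and plasma cell and 1 of 4 T and NK cell markers were lower. On vehicle, 2 of 14 erythroid markers were higher in Jak2VF, with 0 calls in the other lists.

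The summed erythroid level, as log2 of the sum, was 12.82 to 13.11 in WT with vehicle, 13.37 to 13.94 in WT with interferon, 13.16 to 13.66 in Jak2VF with vehicle and 14.38 to 14.83 in Jak2VF with interferon. The summed megakaryocyte level was 15.05 to 15.54, 15.21 to 15.64, 14.56 to 14.91 and 13.23 to 14.43 in the same order of groups. The summed stem cell level was 14.33 to 14.69, 14.50 to 14.64, 14.11 to 14.25 and 12.95 to 13.82. That of granulocytes and monocytes was 15.15 to 16.58, 14.70 to 15.09, 14.42 to 16.21 and 13.60 to 13.93, and that of mast cells, basophils and eosinophils 13.37 to 15.08, 11.48 to 12.24, 13.16 to 14.36 and 10.86 to 11.80. Jak2VF with interferon was thus the highest group in erythroid and the lowest in stem cell, megakaryocyte, granulocyte and monocyte, and mast cell markers, without overlap with Jak2VF on vehicle. The antigen-presenting list ranged over 14.10 to 14.42, 13.20 to 13.71, 13.78 to 14.16 and 12.14 to 12.85, the B and plasma cell list over 10.18 to 11.03, 9.36 to 9.88, 9.77 to 10.47 and 8.29 to 9.11, and the T and NK list over 12.63 to 12.74, 12.22 to 12.75, 12.45 to 12.79 and 11.20 to 11.88.

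Some defining markers were not detected. Alas2 was detected on no array of either Jak2VF group, and Hbb-b2, Alas2, Rhag and Ermap were among those detected on none of WT with vehicle. The T cell markers Cd3e, Cd3d, Cd3g and Cd8a and the granzymes Gzma and Gzmb were detected on no array of any group. Cd79a, Ms4a1, Pax5 and Jchain were undetected in WT with interferon, Cd79a, Pax5, Mzb1 and Jchain in Jak2VF with interferon, and Ebf1 in both vehicle groups. Itgam, Itgax, Il5ra, Ms4a2, Cd4 and Ciita were each undetected in at least 1 group. The part of any of these cell types in the changes of Ccnd1, Socs3, Pim1 and Osm was not tested.

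**Figure D5:**
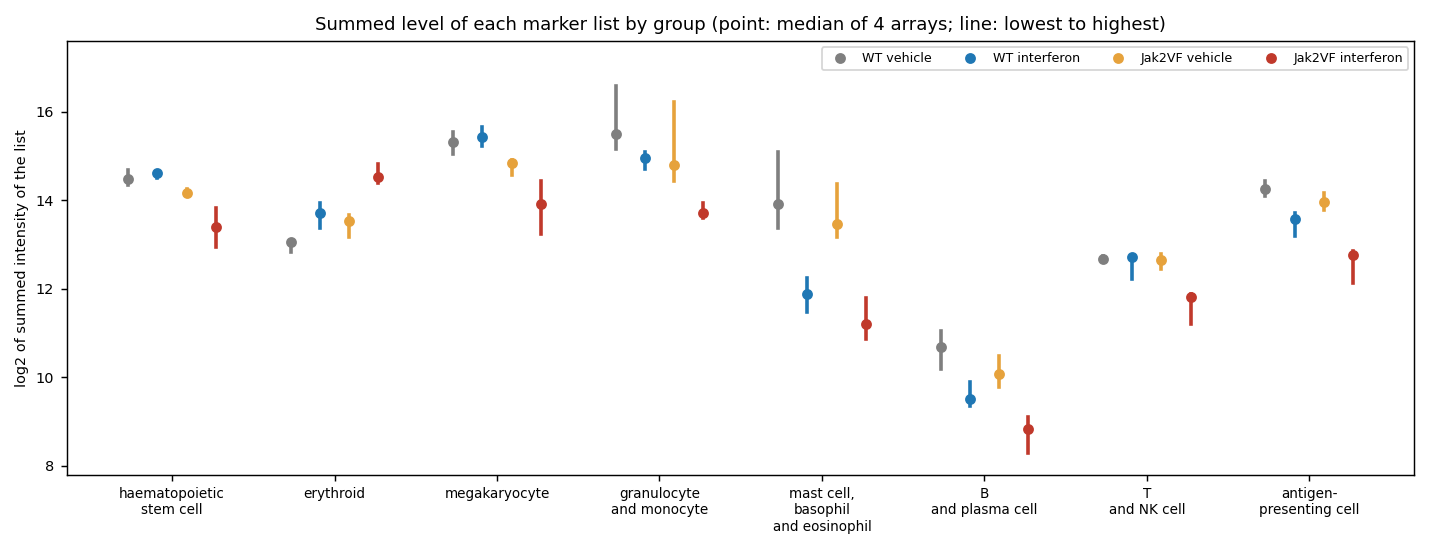
Log2 of the summed intensity of each marker list (vertical axis) by group, as the median of 4 arrays (point) and the range from lowest to highest array (line). The erythroid sum is highest and the stem cell and megakaryocyte sums are lowest in Jak2VF with interferon.

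The genes most like each member over the 16 arrays were found by Pearson correlation of log2 levels, as a description in which all points share array brightness and group. Ccnd1 was most like Atp2a3 (0.95), Slco4a1 (0.94) and Phf13 (0.94). Socs3 was most like the chemokine Ccl4 (0.95), Nfkbiz (0.92) and Sytl1 (0.92), and Pim1 most like Pink1 (0.89), Camkk2 (0.87) and H3c6 (0.87). Osm was nearest to Prpf19 (0.92), Nup93 (0.91) and Acss1 (0.91). Myc was nearest to Rfwd3 (0.98), Ap3b1 (0.98) and Hnrnpf (0.97). Cish went with Ldb3 (0.88), Chchd7 (0.87) and Cebpb (0.86), and Ccnd2 with Tes3 (0.88), Myom1 (0.86) and Klf7 (0.85). The lowest maxima belonged to Pim2, with Plac8 (0.86), Ciart (0.84) and Slc2a9 (0.83), to Socs1, with OTTMUSG00000016293 (0.82), Rad54l (0.82) and Crnkl1 (0.77), and to Socs2, with Eps8l2 (0.72), Acot10 (0.71) and Ncoa2 (0.70).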

How the data were processed

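Biotin-labelled RNA amplified from 16 samples of mouse stem cell-enriched cells was read on Illumina bead arrays, per the labels' protocols. The deposited non-normalized table gives a probe intensity per array, with a detection p-value beside it, per the file headers; the authors' processed table holds intensities on a linear scale, whose method is not given in the sources used here, and it served as an alternative. With R 4.3.3 and limma 3.58.1, intensities were background-corrected from the detection p-values with an offset of 16, quantile-scaled and put on the log2 scale (neqc). A probe passed at a detection p under 0.05 on at least 4 arrays (13364 of 25697 probes), and the brightest passing probe stood for its gene (9680 genes). Of the symbols, 7081 were updated through RefSeq names. lmFit and eBayes fitted 4 group means over 16 arrays for 6 comparisons, with Benjamini-Hochberg adjustment over all genes and calls at 0.05. Nothing in the labels numbers or pairs the samples, and slide was tried as a block. The script was tested on simulated data. The members and lists were chosen with earlier results of these data known. Named are all members, Jak2, up to 3 genes of each list with the largest called change (or the smallest p), and the 3 genes most like each member. Alternatives changed the background correction, scaling, filter, slide, brightness, samples fitted, probes and prior, or left out each array. Some listed genes are not reported here by name.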

Additional observations from a re-analysis of the deposited data

Results flagged for a closer look

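Within each group of 4 arrays, a member's level was checked for 1 array far from the rest, over 40 such sets. Chance alone gives about 1 such value in 20 groups. The Socs1 level of replicate 1 of WT with interferon was 5.24, where the other arrays of its group lay between 4.79 and 4.84. The Pim1 level of replicate 3 of Jak2VF with vehicle was 7.23, where the others lay between 8.18 and 8.28. On the same array Pim2 was 4.61, where the others lay between 5.92 and 6.03. That array was the dimmest of its group, at a mean intensity of 391. Without it, the Pim1 change with interferon in Jak2VF cells was −1.24 (adjusted p = 0.00539).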

How the results depend on the processing

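For the 10 member changes that were called, 156 of 160 values with 1 array left out kept their direction and call and 4 lost the call. Under the other alternatives 100 of 130 kept both, 28 lost the call and 2 turned sign. Of the 50 changes not called, 25 of 640 values passed under the other alternatives, 5 of them with the sign turned, and 57 turned sign in all; 20 of 800 passed and 21 turned sign with 1 array left out. Members called numbered 0 with interferon in WT, against 2 without background correction, 1 on the authors' values, 2 with an intensity trend and robust prior and 5 with centring on all probes. With interferon in Jak2VF they numbered 3, against 4 with centring on passing probes, 1 with brightness as a covariate and 0 on slide 1 alone, on slide 2 alone and with centring on all probes. Between the genotypes on interferon there were 2, against at most 3 under the other alternatives and 0 on each slide alone and with centring on all probes. In Jak2VF with interferon against WT with vehicle there were 5, against 7 with centring on passing probes, 6 without background correction, on the authors' values, with the trend and robust prior and without the 3 dimmest arrays, 1 on slide 1, 2 on slide 2 and 2 with the covariate. Leaving out 1 array gave 0 to 3, 2 to 3, 0 to 2 (genotypes on vehicle), 2 to 4 and 5 to 6. Centring on all probes, added after the data were seen, gave Cish 1.07 with interferon in WT, and Cish 1.40, Pim1 0.36, Ccnd1 0.30 and Ccnd2 1.51 in Jak2VF with interferon against WT with vehicle. Centring on passing probes gave Socs1 −1.40 and Pim2 −1.36 there, against 0.26 and 0.14. The cause was not tested. Over all genes, calls with interferon in WT numbered 220, against 0 on each slide alone, 1 with the compared groups alone, 3 with the covariate and 6129 with centring on all probes; between the genotypes on vehicle there were 41, against 1 with that centring. Centring on all probes moved the median of all genes by 1.12 with interferon in WT and by 0.56 in Jak2VF. No paired analysis was run because the labels give no replicate numbers, and those used here follow the order of the arrays. The labels used here do not say whether WT and Jak2VF cells came from the same animals. Whether arrays pair across the genotypes was therefore not tested. Socs1, Pim2 and the dimmer Osm and Pim1 probes lay near background, which limits what they can show.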

Other observations

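Over the 16 arrays the members also ran with each other, given as a description with no test. Socs3 and Pim1 ran together (Pearson r = 0.86), both being lowest on average in Jak2VF with interferon. Osm ran opposite to Ccnd1 (r = −0.81) and to Ccnd2 (r = −0.68), and Cish opposite to Myc (r = −0.69). All of these pairs share group and array brightness.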
